A study of Mus musculus with 13 samples.

Results

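The protein-coding genes of the translation initiation factors (symbols starting Eif1 to Eif6) and of the elongation factors eEF1 and eEF2 (Eef1, Eef2) were followed in mouse M2 CD4SP thymocytes, the most mature CD4 single-positive stage in the thymus (CD69-MHCI+). The kinases of the Eif2ak family were left out by the rule. It gave 64 genes of 35906 with summed transcripts, of which 21849 are protein-coding. The cells carried the Lm54 T cell receptor (TCR) transgene on a Rag1-/- background, so they could not rearrange receptors of their own, and recognise a listeriolysin O peptide on I-Ab. One genotype, CtslΔTEC, combines a conditional Ctsl allele with Foxn1-cre, which deletes cathepsin L in thymic epithelial cells and not in the thymocytes that were sequenced. The labels give the controls as Ctsl fl/fl (WT), whereas the study's text writes them as Ctsl+/+, and which holds is not settled here. Sorted cells from 5 CtslΔTEC and 4 control mice were left unstimulated, and cells from 2 further mice of each genotype were stimulated for 4 h with plate-bound LLO:Iab monomer (1 µg/ml) and soluble anti-CD28 (250 ng/ml), 1 mouse per library. Ages are not given in the labels.

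Translation of most mRNAs starts when eIF4E, held in the eIF4F complex with the scaffold eIF4G and the helicase eIF4A, binds the cap. The small ribosomal subunit arrives with eIF3, eIF1, eIF1A and the eIF2 complex, which brings the initiator tRNA and is recharged with GTP by eIF2B. eIF5B joins the subunits, eEF1A delivers the aminoacyl-tRNAs, eEF2 moves the ribosome along and eIF5A helps it over difficult peptide bonds. The 4E-binding proteins (4E-BPs) hold eIF4E away from eIF4G, and eEF2 kinase inactivates eEF2. Naive T cells keep protein synthesis low and raise it soon after TCR engagement.

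Depth ranged from 25692380 to 39127833 estimated counts in unstimulated and from 8085463 (control mouse 5) to 27184520 in stimulated libraries. Markers of CD4 T cells were abundant in every library, with summed normalised read counts (TMM-scaled, in CPM) of 3638 to 4476. Markers of other stages moved with genotype. The 5 DP thymocyte markers summed to 35.4 to 44.5 CPM in unstimulated control and 148 to 197 CPM in unstimulated CtslΔTEC cells, and 4 of the 5 were called higher. The 4 mature thymocyte markers summed to 2365 to 2754 and 1586 to 1891 CPM, and 4 of 4 were called lower. After stimulation the DP markers summed to 22.0 to 28.8 CPM in control and 68.3 to 77.0 CPM in CtslΔTEC cells, with 3 of 5 called higher. The mature markers then summed to 293 to 457 and 189 to 240 CPM, with 3 of 4 called lower. Of 5 activation markers (Cd69, Il2, Nr4a1, Egr2 and Myc) Il2 was called lower in stimulated CtslΔTEC cells (log2 -3.55), and the others were not called. Ctsl itself stood at 6.31 to 8.84 CPM in unstimulated control and 11.4 to 17.9 CPM in unstimulated CtslΔTEC cells, and since the deletion lies in other cells this does not check the labels. The sexes were not balanced. Y-linked transcripts (Ddx3y, Kdm5d and Uty) summed to 254 to 391 CPM in the 5 unstimulated CtslΔTEC mice and to 305 CPM in unstimulated control mouse 3, but to 6.11 to 8.31 CPM in unstimulated control mice 1, 2 and 4. Among stimulated mice they were high in control mouse 6 and CtslΔTEC mouse 7 and low in the other two. No unstimulated library shares the date given for the 4 stimulated ones, and unstimulated cells were not cultured. Stimulation, culture and date therefore cannot be told apart. The unstimulated libraries themselves carry 2 dates. CtslΔTEC mice 1 and 3 and control mouse 4 have date 1, and all other unstimulated mice have date 2, so each date holds both genotypes. In bulk RNA fewer cells of a type and less RNA per cell cannot be told apart either.

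Levels between genes were compared per length, in TPM, which divides by transcript length. Together the 64 genes took 1.80% to 2.08% of all TPM in unstimulated control and 1.64% to 1.92% in unstimulated CtslΔTEC cells. They took 2.32% to 2.38% in stimulated control and 2.27% to 2.30% in stimulated CtslΔTEC cells. In both genotypes every stimulated library was above every unstimulated one. Eef1a1, which encodes the tRNA-delivering eEF1A, was the most abundant with a mean level of 8322 TPM in unstimulated control cells, followed by Eef2 at 1782 TPM and the exchange factor subunit Eef1b2 at 1278 TPM. In stimulated control cells the order below Eef1a1 (6663 TPM) had changed. Eif5a came next at 1834 TPM, then Eif4a1 at 1510 TPM, Eef1b2 at 1442 TPM and Eef2 at 1279 TPM. At the other end, Eef1a2, the eEF1A gene of muscle and neurons, had a count of 0 in all 13 libraries, which allows up to 3 counts in each, and the methyltransferase gene Eef1akmt3 had 1 to 8 counts. Neither passed the count filter, and the other 62 members were tested in every comparison. Reads of near-identical copies (Eif2s3x and Eif2s3y, Eif3j1 and Eif3j2, Eif1a and Eif1ax, Eif1 and Eif1b, and Eef1a1 and its pseudogenes) may be divided between copies by the transcript quantification, so their single values are less certain.

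Which members respond to antigen was asked within each genotype. In control cells 43 of 62 members rose and 8 fell after stimulation (edgeR quasi-likelihood test, adjusted p under 0.1), and the median log2 fold change of the members was 0.77. Over all genes tested, 32.9% rose and 34.8% fell, with a median of 0.01. In CtslΔTEC cells 45 members rose and 7 fell, with a median of 0.72, against 32.9% and 38.2% of all genes and a median of -0.06. Of these, 41 members rose and 6 fell in both genotypes. In control cells 41 members had every stimulated mouse above every unstimulated one (33.4% of all genes did) and 5 had every one below (36.0%). In CtslΔTEC cells 46 and 8 members were separated in this way, against 33.8% and 38.3% of all genes. The response without each mouse in turn gave 45 to 50 members called in control and 47 to 53 in CtslΔTEC cells.

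**Figure D1:**
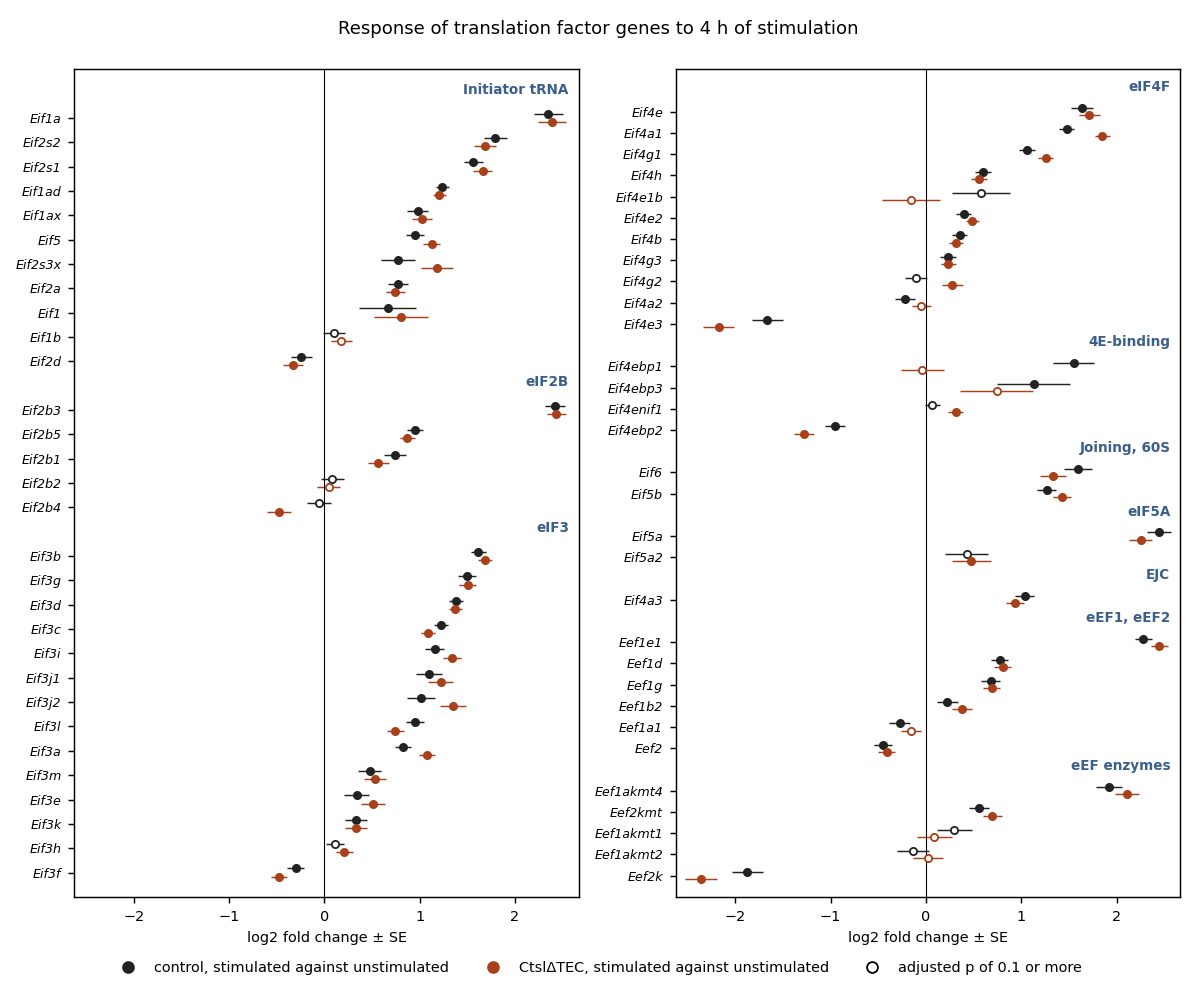
Log2 fold change (± SE) on stimulation of 61 translation factor genes in control (black) and CtslΔTEC (rust) cells, by role; filled points passed an adjusted p of 0.1. Eif2s3y, which is absent from mice without a Y chromosome, is left out. Most points lie right of 0 in both genotypes, Eef2k, Eif4e3 and Eif4ebp2 lie left of it, and Eif4ebp1 lies at 1.55 in control and at -0.04 in CtslΔTEC cells.

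Most factors that bring the initiator tRNA and select the start codon rose. Of the 12 members of this role 9 rose, 1 fell and 2 did not pass the test in each genotype. Among those that rose, Eif1 differed between the dates of the unstimulated mice, with 459 to 584 CPM on date 1 and 258 to 351 CPM on date 2. Its control values overlapped, with 569 CPM in unstimulated mouse 4 and 549 CPM in stimulated mouse 6. The part of date in its rise was not tested. Eif1a, for the eIF1A protein that helps the ribosome scan, had 40.04, 41.7, 38.0 and 32.2 CPM in the unstimulated control mice 1 to 4 and 210 and 178 CPM in stimulated control mice 5 and 6. CtslΔTEC cells had 24.6, 34.5, 38.4, 40.1 and 34.0 CPM before and 190 and 169 CPM after stimulation. Unstimulated and stimulated values did not overlap, and the log2 fold changes were 2.35 ± 0.15 (SE; n = 4 and 2; edgeR adjusted p = 4.82e-09) and 2.39 ± 0.14 (n = 5 and 2; edgeR adjusted p = 1.37e-09). The eIF2 subunits α and β, encoded by Eif2s1 and Eif2s2, rose by 1.56 and 1.79 on the log2 scale in control and by 1.66 and 1.68 in CtslΔTEC cells. Eif2d, a factor for tRNA delivery outside the eIF2 pathway, was the one that fell, by 0.24 and 0.33.

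Of the 5 subunits of eIF2B, the exchange factor that recharges eIF2, only some moved. Eif2b3 (the γ subunit, part of its catalytic core) had 14.5, 15.9, 13.9 and 15.4 CPM in unstimulated control mice and 89.1 and 71.5 CPM in stimulated ones. The CtslΔTEC mice went from 13.4, 13.8, 14.9, 15.4 and 12.9 CPM to 71.6 and 79.8 CPM. Resting and stimulated values lie far apart in both genotypes, a 5.35-fold and a 5.39-fold rise (log2 2.42 ± 0.11 and 2.43 ± 0.10; edgeR adjusted p = 7.42e-11 and 2.27e-11). Eif2b5 and Eif2b1 rose by 0.95 and 0.74 in control and by 0.87 and 0.57 in CtslΔTEC cells. Eif2b2 did not pass the test, with 0.08 and 0.05, and Eif2b4 fell in CtslΔTEC cells (log2 -0.48 ± 0.13, adjusted p = 0.0035) and did not pass in control cells (log2 -0.06). The difference of the Eif2b4 responses did not pass the test (log2 -0.42 ± 0.18, adjusted p = 0.24), so its response is not shown to differ between genotypes.

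The subunits of eIF3, the largest initiation factor, moved almost as a block. Of 14 members 12 rose in control and 13 in CtslΔTEC cells, with median log2 fold changes of 0.98 and 1.08. Eif3b, a core subunit, showed the largest rise of the complex, from 227 to 254 CPM in unstimulated control mice to 750 and 733 CPM, and from 205 to 234 CPM in CtslΔTEC mice to 682 and 720 CPM (log2 1.61 ± 0.08 and 1.69 ± 0.07). One subunit went the other way. Eif3f, an MPN-domain subunit, had 247, 285, 254 and 277 CPM in unstimulated control mice and 216 and 215 CPM after stimulation, and 243, 223, 220, 212 and 215 CPM in CtslΔTEC mice against 157 and 163 CPM. The stimulated values were below every unstimulated one in each genotype, with log2 fold changes of -0.30 ± 0.09 (adjusted p = 0.0067) and -0.47 ± 0.08 (adjusted p = 0.00015).

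Among the genes of eIF4F, its cofactors and relatives, the cap-binding protein, the main helicase and the main scaffold rose most. Of the 11 members of this role 7 rose and 2 fell in control, and 8 rose and 1 fell in CtslΔTEC cells. Eif4e had 75.4, 81.1, 77.0 and 70.1 CPM in unstimulated control and 259 and 214 CPM in stimulated control mice. The CtslΔTEC mice had 55.1, 68.8, 70.9, 78.1 and 72.6 CPM before and 226 and 227 CPM after stimulation. That is a 3.12-fold rise in control and a 3.28-fold rise in CtslΔTEC cells (log2 1.64 ± 0.12 and 1.72 ± 0.11; edgeR adjusted p = 1.19e-08 and 2.73e-09). The scaffold gene Eif4g1 rose by 1.06 and 1.26 on the log2 scale, and Eif4h, Eif4b, Eif4e2 and Eif4g3 rose in both genotypes by 0.23 to 0.60. Eif4g2, a relative of the scaffold that does not bind eIF4E, rose in CtslΔTEC cells alone (log2 0.28, and -0.11 in control), a difference of responses that did not pass (adjusted p = 0.24). Eif4a2, the second eIF4A gene, fell slightly in control cells (log2 -0.22 ± 0.10, adjusted p = 0.081) and did not pass in CtslΔTEC cells (log2 -0.05).

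Eif4e3, which encodes an atypical cap-binding protein, was the clearest exception. It had 32.4, 31.5, 32.1 and 30.6 CPM in unstimulated control mice and 10.2 and 9.82 CPM in stimulated ones. The CtslΔTEC values were 38.5, 42.2, 50.2, 49.0 and 42.8 CPM before and 7.49 and 12.01 CPM after stimulation. So it stood higher in CtslΔTEC cells at rest and at similar levels in both genotypes after stimulation. It was 3.17-fold lower after stimulation in control (log2 -1.67 ± 0.16, adjusted p = 3.91e-07) and 4.51-fold lower in CtslΔTEC cells (log2 -2.17 ± 0.16, adjusted p = 1.43e-08).

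Eif5a and the factors for subunit joining rose in both genotypes. Eif5a, the hypusine-bearing factor, had 278, 279, 296 and 354 CPM in unstimulated control mice and 1882 and 1402 CPM in stimulated ones. The CtslΔTEC mice went from 310, 250, 290, 266 and 277 CPM to 1269 and 1385 CPM. It rose 5.44-fold in control and 4.77-fold in CtslΔTEC cells (log2 2.44 ± 0.13 and 2.25 ± 0.12; edgeR adjusted p = 3.83e-10 and 2.95e-10). Among control mice the shallowest library, mouse 5, gave the higher value. Eif6 and Eif5b, for 60S maturation and subunit joining, rose by 1.59 and 1.27 in control and by 1.33 and 1.43 in CtslΔTEC cells, and Eif4a3, the helicase that anchors the exon junction complex, by 1.04 and 0.93.

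The elongation machinery split. The 2 genes that carry out elongation itself did not rise. Eef2 had 3605, 3844, 3643 and 4199 CPM in unstimulated control mice and 2837 and 2762 CPM after stimulation, and 3295, 2855, 3031, 2988 and 3083 CPM in CtslΔTEC mice against 2221 and 2361 CPM. Every stimulated mouse was below every unstimulated one of its genotype (log2 -0.45 ± 0.09 and -0.41 ± 0.09; adjusted p = 0.00074 and 0.0010). Eef1a1 had 9151, 10699, 8498 and 10451 CPM in unstimulated and 8677 and 7375 CPM in stimulated control mice, which overlap. The CtslΔTEC values were 7673, 8185, 8121, 8239 and 7896 CPM against 7128 and 7263 CPM. It was called lower in control (log2 -0.27 ± 0.11, adjusted p = 0.044; 0.27 without stimulated control mouse 6) and not in CtslΔTEC cells (log2 -0.16 ± 0.11, adjusted p = 0.21). The exchange factor subunits Eef1d and Eef1g rose by 0.78 and 0.68 in control and 0.80 and 0.69 in CtslΔTEC cells. Eef1b2 rose by 0.22 in control (adjusted p = 0.095, and 0.83 without stimulated control mouse 5) and by 0.38 in CtslΔTEC cells. Eef1e1, a component of the multisynthetase complex named for its likeness to eEF1B, rose most, from 25.1, 22.0, 21.8 and 23.7 CPM to 120 and 105.9 CPM in control (log2 2.28 ± 0.09, adjusted p = 2.87e-11) and from 20.9 to 24.2 CPM to 123 and 124 CPM in CtslΔTEC mice (log2 2.45 ± 0.08, adjusted p = 4.78e-12).

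The enzymes that modify elongation factors moved in opposite directions. Eef2k, the kinase that switches eEF2 off, had 25.2, 24.5, 25.7 and 26.0 CPM in unstimulated control mice and 6.35 and 7.26 CPM in stimulated ones. Eef2k in CtslΔTEC mice had 27.0, 24.3, 28.0, 28.5 and 23.5 CPM before and 3.79 and 6.26 CPM after stimulation. No stimulated value came near an unstimulated one, and Eef2k was 3.67-fold lower in control (log2 -1.88 ± 0.16, adjusted p = 1.03e-07) and 5.13-fold lower in CtslΔTEC cells (log2 -2.36 ± 0.17, adjusted p = 7.57e-09). Eef1akmt4, a lysine methyltransferase of eEF1A, rose from 6.26, 8.48, 8.22 and 8.39 CPM to 33.8 and 25.9 CPM in control (log2 1.92 ± 0.13, adjusted p = 9.99e-09) and from 6.58 to 6.84 CPM to 28.4 and 29.1 CPM in CtslΔTEC mice (log2 2.11 ± 0.13, adjusted p = 1.29e-09). Eef2kmt rose by 0.56 and 0.70, and Eef1akmt1 and Eef1akmt2 did not pass the test.

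The promoter windows of members that moved together were read for the E-box CACGTG, the palindrome bound by Myc and related factors (the same letters on both strands). RefSeq windows on GRCm38.p6 were found for 48 of the 64 members, and the 250 bases before each annotated start were searched. The motif stood in 12 of these 48 (25.0%), and in 9 of the 42 with a single window (21.4%). It stood in 6.86% of all 27025 genes of the table and in 9.33% of 10443 genes that were tested here and have a window. By direction, it was found in 7 of 33 members that rose in both genotypes and in 3 of 5 that fell in both, beside 11.9% of all matched genes that rose and 8.83% that fell. So the motif was seen on both sides of the response. Sites before 5 members that rose and before the 3 that fell are shown with 20 bases on either side and the E-box in capitals, 5′ to 3′ on the strand of the gene.
Eif5a (rose; chr11:69921435-69921480, minus strand): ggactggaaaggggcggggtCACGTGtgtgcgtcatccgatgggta
Eif4e (rose; chr3:138527184-138527229, plus strand): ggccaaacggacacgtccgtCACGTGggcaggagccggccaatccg
Eif4a1 (rose; chr11:69672587-69672632, minus strand): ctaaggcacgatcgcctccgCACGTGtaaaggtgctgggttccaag
Eif4g1 (rose; chr16:20672653-20672698, plus strand): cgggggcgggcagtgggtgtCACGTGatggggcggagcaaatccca
Eef1akmt4 (rose; chr16:20611489-20611534, plus strand): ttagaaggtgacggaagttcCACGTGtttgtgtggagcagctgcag
Eef2 (fell; chr10:81176568-81176613, plus strand): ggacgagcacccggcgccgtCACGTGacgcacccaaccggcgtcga
Eif3f (fell; chr7:108934327-108934372, plus strand): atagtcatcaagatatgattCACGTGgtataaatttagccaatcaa
Eef2k (fell; chr7:120842780-120842825, plus strand): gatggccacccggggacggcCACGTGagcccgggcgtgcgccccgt
The motif begins 74 bases before the annotated start for Eif5a (the same site is 185 bases before another of its starts, and a further match not shown lies 178 bases before a start), 64 for Eif4e (with a second, not shown, 228 bases before), 189 for Eif4a1, 54 for Eif4g1, 92 for Eef1akmt4, 43 for Eef2, 68 for Eif3f and 31 for Eef2k. A match is a run of letters, and binding was not measured.

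Among the 4E-BPs and the eIF4E transporter, Eif4ebp1 had a response that differed between genotypes, and for the other 3 the difference did not pass the test. Eif4ebp2, the more abundant one, had 503.7, 487, 544 and 432 CPM in unstimulated control mice and 261 and 247 CPM after stimulation. The CtslΔTEC values were 433, 448, 423, 458 and 509 CPM before and 185 and 189 CPM after. It was called lower on stimulation in both genotypes (log2 -0.95 ± 0.10 and -1.28 ± 0.10; adjusted p = 1.25e-06 and 3.59e-08), and the difference of its responses did not pass (log2 -0.33, adjusted p = 0.26; 0.16 to 0.52 over 24 alternatives). Eif4ebp1 (chr8:27260329-27276674, plus strand, GRCm38) was scarce at rest, with 4.87, 3.47, 4.24 and 5.14 CPM in unstimulated control and 4.93, 4.69, 4.21, 6.03 and 4.46 CPM in unstimulated CtslΔTEC mice. After stimulation it stood at 16.4 and 10.1 CPM in control mice and at 5.24 and 4.30 CPM in CtslΔTEC mice. Control mice thus rose above every resting value, and the stimulated CtslΔTEC mice stayed within the resting range. The gene's summed count rose 2.93-fold in control cells (log2 1.55 ± 0.22, adjusted p = 1.69e-05), and in CtslΔTEC cells the log2 fold change was -0.04 ± 0.23 (adjusted p = 0.90). The difference of the responses passed the test (log2 -1.59 ± 0.32, edgeR adjusted p = 0.017) and did so under each of 24 alternatives, at adjusted p of 0.00064 to 0.091. Part of the rise in control cells lay on a transcript not annotated as coding, whose estimated share went from 0% to 27.3% at rest to 40.6% and 53.7% after stimulation, with 0% to 37.0% and then 33.3% and 36.5% in CtslΔTEC mice. The coding transcript alone stood at 3.73, 2.28, 3.21 and 3.47 TPM in unstimulated and 7.97 and 6.04 TPM in stimulated control mice, and at 3.17 to 4.33 TPM and then 3.13 and 2.51 TPM in CtslΔTEC mice. On this measure too the 2 stimulated control mice were above all others, and it was not tested. Eif4ebp3 was called higher in control alone (log2 1.13 ± 0.39 and 0.74 ± 0.38) and Eif4enif1, the eIF4E transporter, in CtslΔTEC alone (log2 0.07 and 0.31), and the difference of the responses passed for neither (adjusted p = 0.81 and 0.31).

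**Figure D2:**
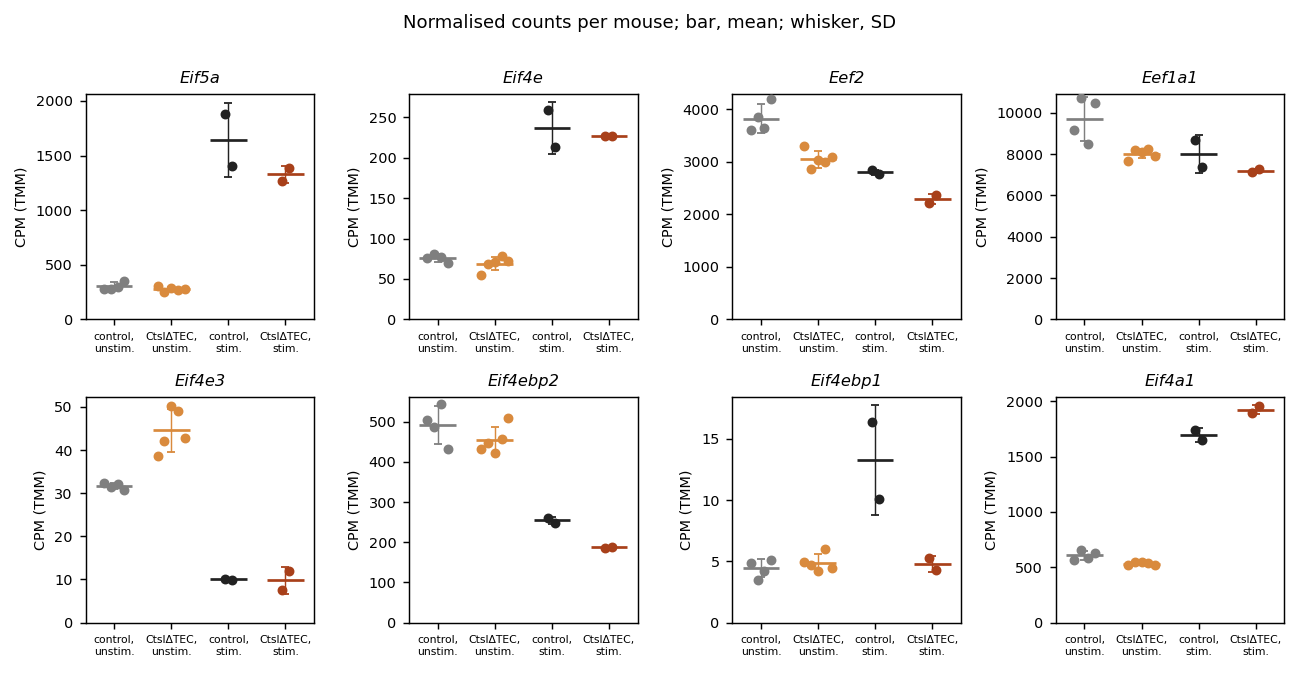
Normalised read counts (CPM, linear axes from 0) of 8 members in each mouse of the 4 groups; bars show the mean and whiskers the SD (n = 4, 5, 2 and 2). Eif5a and Eif4e rise in both genotypes, Eif4e3 and Eif4ebp2 fall in both, and Eif4ebp1 is higher in the 2 stimulated control mice (16.4 and 10.1 CPM) than in any other.

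One further member responded differently. Of 62 members 1 was called with a larger and 1 with a smaller response in CtslΔTEC cells, against 1.13% and 4.88% of all genes, and the median difference was 0.03 on the log2 scale (-0.06 over all genes). Eif4a1 had 570, 656, 585 and 627 CPM in unstimulated control mice and 1742 and 1653 CPM in stimulated ones. Its CtslΔTEC values were 521, 544, 546, 538 and 518 CPM before and 1894 and 1957 CPM after. The CtslΔTEC mice were thus the lower ones at rest and the higher ones after stimulation, with no overlap in either state. After stimulation this genotype difference was not called (log2 0.18), and 19.4% of all genes were separated in the same direction. The responses were log2 1.48 ± 0.08 and 1.85 ± 0.07, and their difference was 0.37 ± 0.11 (edgeR adjusted p = 0.091). It passed in 7 of 24 alternatives and was lost without any one of the 4 stimulated mice (adjusted p = 0.16 to 0.24).

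Genotype at rest was compared in the 9 unstimulated libraries. Of 62 members 2 were called higher and 8 lower in CtslΔTEC cells, beside 6.42% and 8.36% of all genes tested. The members' median log2 fold change was -0.10 against 0.01 over all genes, and 49 of 62 were negative, beside 6305 of 13152 over all genes tested. 2 members had every CtslΔTEC mouse above every control mouse (5.95% of all genes) and 10 had every one below (7.92%). The differences were small, with called values of -0.19 to -0.37 among those that were lower. The elongation factors took 4 of the 8 lower calls, eIF3 took 2, and Eif4a1 and Eif2s3x made up the rest.

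Eef2, with the values per mouse given above, was 1.25-fold lower in CtslΔTEC cells, and all 5 CtslΔTEC mice were below all 4 control mice (log2 -0.32 ± 0.07, edgeR adjusted p = 0.013; exact permutation p = 0.0079, the smallest that 5 against 4 mice can give, two-sided). Eef1a1 was 1.21-fold lower, also without overlap (log2 -0.27 ± 0.08, edgeR adjusted p = 0.051, exact permutation p = 0.0079). Eef1b2 had 626, 636, 576 and 735 CPM in control and 544, 493, 487, 530 and 565 CPM in CtslΔTEC mice, with no overlap (log2 -0.29 ± 0.08, adjusted p = 0.037). Eef1g differed by -0.22 ± 0.06 (adjusted p = 0.043). Eif3i, an outer subunit of eIF3, had 90.6, 110, 99.1 and 105.6 CPM in control and 87.1, 84.1, 73.8, 81.4 and 77.2 CPM in CtslΔTEC mice (log2 -0.33 ± 0.07, adjusted p = 0.014), and Eif3f differed by -0.25 ± 0.07 (adjusted p = 0.034). All 14 eIF3 members had negative values (-0.05 to -0.33), and 12 of them did not pass the test. Eif4a1 differed by -0.19 ± 0.06 (adjusted p = 0.072) and passed in 9 of 25 alternatives.

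Both higher members belong to less abundant relatives of the main factors. Eif4e3 was higher in every CtslΔTEC mouse than in any control mouse, 1.41-fold on average (log2 0.49 ± 0.08, adjusted p = 0.0029, exact permutation p = 0.0079). Eif5a2, the second eIF5A gene, had 6.76, 8.66, 6.92 and 4.64 CPM in control and 7.71, 10.8, 8.75, 12.1 and 9.75 CPM in CtslΔTEC mice, which overlap (log2 0.55 ± 0.18, adjusted p = 0.079; passed in 15 of 25 alternatives). The main genes Eif4e and Eif5a differed by -0.13 ± 0.09 and -0.11 ± 0.09 and did not pass (adjusted p = 0.42 and 0.49).

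Y-linked transcripts moved with genotype at rest. Control mouse 3, the one unstimulated control with Y-linked transcripts, was the lowest of the controls for Eef1a1, Eef1b2 and Eif2s3x. It was not the lowest for Eef2, Eif3f, Eif3i or Eif4a1, nor the highest for Eif4e3 or Eif5a2. With the Y-linked level as a covariate edgeR called 0 members (2 at an unadjusted p under 0.05). The share of all genes called with the covariate is not given here, so the loss is not shown to be particular to the members. DESeq2 on all 9 libraries called 13 members. With the covariate the log2 difference of Eef1a1 went from -0.27 to -0.08 and that of Eef1b2 from -0.29 to -0.11. That of Eef2 went from -0.32 to -0.23, that of Eif3i from -0.33 to -0.28 and that of Eif4e3 from 0.49 to 0.46, and none of these passed (adjusted p of 0.22 to 0.89). The part of the DP and mature thymocyte markers in these calls was not tested, and with Y-linked transcripts in 5 of 5 CtslΔTEC and 1 of 4 control mice genotype and sex cannot be fully told apart. The count of 10 was also 5 without control mouse 2 and 6 without control mouse 4.

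**Figure D3:**
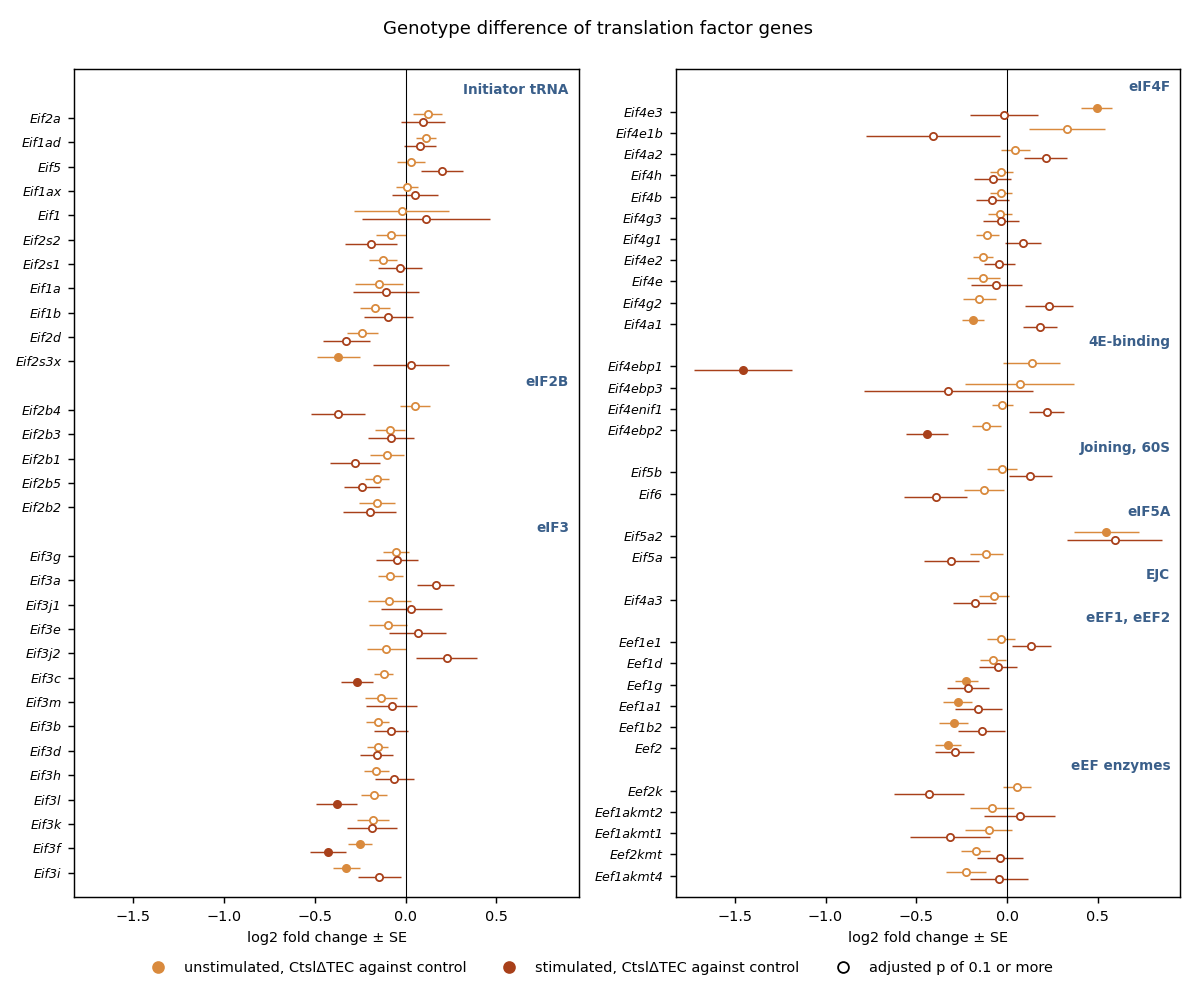
Log2 difference (± SE) between CtslΔTEC and control cells of 61 members at rest (orange) and after stimulation (rust), by role; filled points passed an adjusted p of 0.1, and Eif2s3y is left out. Nearly all points lie within 0.5 of 0, and Eif4ebp1 after stimulation (-1.45) stands apart.

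The γ subunit of eIF2 is encoded by Eif2s3x on the X chromosome and, in males, also by Eif2s3y on the Y chromosome. Eif2s3y had 2 to 4 counts in unstimulated control mice 1, 2 and 4 and 0 in stimulated control mouse 5 and CtslΔTEC mouse 6, and it was high in the mice with other Y-linked transcripts, with 84.9 CPM in unstimulated control mouse 3, 86.2, 79.0, 119, 74.4 and 95.4 CPM in unstimulated CtslΔTEC mice 1 to 5, and 110 and 167 CPM in stimulated control mouse 6 and CtslΔTEC mouse 7. Eif2s3x ran the other way. It was 240 to 286 CPM in the 3 unstimulated mice without Eif2s3y and 159 to 198 CPM in the 6 with it, and 480 and 500 CPM against 329 and 365 CPM after stimulation. The groups with and without Eif2s3y did not overlap in either state. Per length, Eif2s3y made up 46.1% to 56.5% of the summed TPM of the pair in the 6 unstimulated and 41.2% and 45.1% in the 2 stimulated mice that carry it (27.5% to 38.1%, and 25.0% and 31.4%, of the summed CPM, which is not divided by length). The summed level depended on the scale. In TPM it was 98.7 to 113 without and 151 to 208 with Eif2s3y at rest, and 195 and 198 against 223 and 276 after stimulation, with no overlap in either state. In CPM it was 241 to 286 without and 245 to 312 with Eif2s3y at rest and 480 and 500 against 439 and 531 after stimulation, which overlap. The genotype call of Eif2s3x at rest (log2 -0.37 ± 0.12, adjusted p = 0.071) turned to 0.03 with the Y-linked covariate. Eif2s3y differed by 2.12 ± 1.27 between genotypes and did not pass (adjusted p = 0.35). Eif2s3x rose on stimulation by 0.77 ± 0.18 in control and 1.18 ± 0.17 in CtslΔTEC cells.

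**Figure D4:**
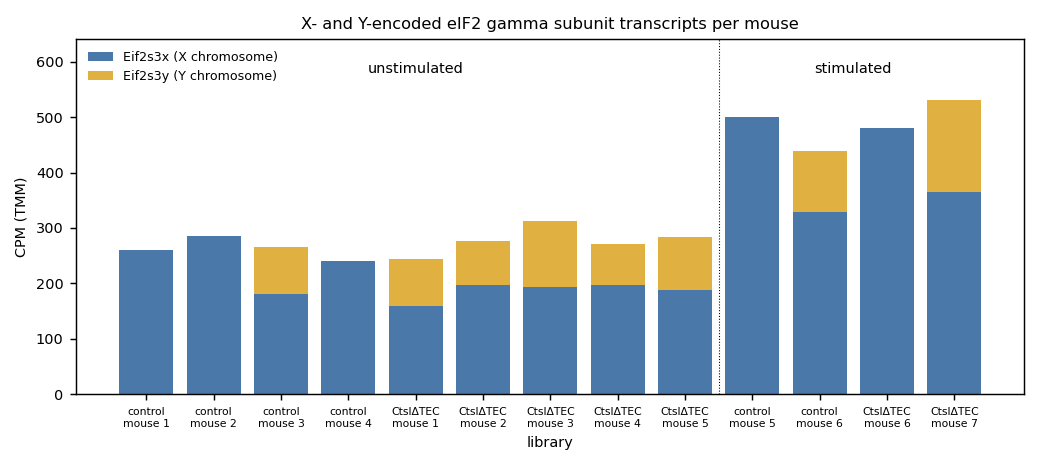
CPM of Eif2s3x (blue) and Eif2s3y (yellow), stacked, in each of the 13 libraries. Mice without Eif2s3y have taller blue bars (240 to 286 at rest) than mice with it (159 to 198), and the stacked heights of both kinds overlap in CPM, whereas in TPM the sums do not (98.7 to 113 without and 151 to 208 with Eif2s3y at rest).

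Genotype after stimulation rested on 2 mice against 2, in a model that shares the spread of all 13 libraries. Of 62 members 0 were called higher and 5 lower in CtslΔTEC cells, beside 2.77% and 10.6% of all genes tested. At an unadjusted p under 0.05 edgeR gave 2 higher and 11 lower, and DESeq2 called 0 higher and 6 lower. The members' median was -0.08 (-0.05 over all genes). 10 members had both CtslΔTEC mice above both controls and 22 had both below, beside 19.4% and 30.2% of all genes. An exact test of 2 against 2 cannot go below a two-sided p of 0.33. Mice with and without Y-linked transcripts were 1 each in both genotypes here. DP and mature thymocyte markers and Il2 also differed by genotype after stimulation, and their part in these calls was not tested.

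Eif4ebp1 and Eif4ebp2 were among the 5. Eif4ebp1 was 2.74-fold lower in stimulated CtslΔTEC cells (log2 -1.45 ± 0.27, edgeR adjusted p = 0.0041) and was called in all 16 alternatives, at log2 -1.09 to -1.80. Eif4ebp2 was 1.36-fold lower (log2 -0.44 ± 0.12, adjusted p = 0.027), and the call was lost without CtslΔTEC mouse 6, CtslΔTEC mouse 7 or control mouse 5 (adjusted p = 0.15, 0.10 and 0.14). The other 3 were eIF3 subunits. Eif3f differed by -0.43 ± 0.10 (adjusted p = 0.014). It passed in 12 of 16 alternatives (log2 -0.25 to -0.47) and was lost without CtslΔTEC mouse 6, among others. Eif3l had 274 and 232 CPM in control and 197 and 192 CPM in CtslΔTEC mice (log2 -0.38 ± 0.11, adjusted p = 0.048), and Eif3c had 625 and 569 CPM against 515 and 477 CPM (log2 -0.27 ± 0.09, adjusted p = 0.083). Both calls were lost without CtslΔTEC mouse 6, CtslΔTEC mouse 7 or control mouse 5 (adjusted p of 0.17 to 0.33 and 0.15 to 0.36), and over all 16 alternatives Eif3l passed in 12 and Eif3c in 7. Eef2 was again lower in both CtslΔTEC mice (log2 -0.29 ± 0.11, adjusted p = 0.12), which did not pass. The count of 5 became 1 without CtslΔTEC mouse 6, 3 without CtslΔTEC mouse 7, 2 without control mouse 5 and 10 without control mouse 6.

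Genes that act beside the members were counted from lists of 47 genes, of which 46 were tested (Gspt2 had 0 to 1 counts). On stimulation 25 of 46 rose and 13 fell in control, where 32.9% and 34.8% of all genes did, and 26 rose and 12 fell in CtslΔTEC cells, beside 32.9% and 38.2%. Of the 7 tested termination and recycling genes 6 rose in each genotype, and of the 8 enzymes that make hypusine on eIF5A or diphthamide on eEF2, 6 and 7 rose, among them Dph2 (log2 1.89 and 1.87). Among 7 poly(A)-binding proteins and partners 4 rose in each, with Larp1 at 1.82 and 1.85. Among 10 regulators of eIF4F 4 rose and 6 fell in control and 4 rose and 5 fell in CtslΔTEC cells, led by Pdcd4, an inhibitor of eIF4A (log2 -3.45 ± 0.23 and -4.54 ± 0.24). The 6 eIF2α kinases and phosphatase regulators split into 2 that rose and 2 that fell in each, with Eif2ak2 at -1.51 and -1.44, and the 8 mitochondrial translation factors into 3 and 3, with Tufm at 0.93 and 0.80. By genotype, 1 of 46 was called higher and 3 lower at rest, beside 6.42% and 8.36% of all genes, with Hbs1l at 0.25, Cyfip1, whose product binds eIF4E, at -0.81, Dph5 at -0.52 and Mtif3 at -0.22. After stimulation 0 were higher and 3 lower, beside 2.77% and 10.6%, with Pdcd4 at -1.10 ± 0.23 (adjusted p = 0.0089). One response was larger and 2 were smaller in CtslΔTEC cells, with Dph5 at 0.61, and Mknk2, a kinase of eIF4E, at -0.68 and Pdcd4 at -1.09.

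The transcripts behind the gene sums also shifted. These shares come from the quantification of overlapping transcripts and are given without a test. In the 61 members with at least 1 TPM in every library, transcripts annotated as retained introns took 3.80% to 5.01% of the members' TPM in unstimulated control, 4.85% to 7.05% in unstimulated CtslΔTEC, 6.30% and 8.52% in stimulated control and 9.21% and 9.99% in stimulated CtslΔTEC mice. Of 50 members with any transcript not annotated as coding, the share of such transcripts was higher in every stimulated than in every unstimulated mouse of both genotypes for 13 (26.0%) and lower for 0. Over 7588 protein-coding genes taken by the same rule it was higher for 19.4% and lower for 1.67%. Over the 9060 protein-coding genes with at least 1 TPM in every library retained introns took 7.71% to 8.74% of TPM in unstimulated and 8.47% and 11.4% in stimulated control mice, and 8.62% to 9.81% and then 11.8% and 12.5% in CtslΔTEC mice. The share of all transcripts not annotated as coding went, for Eif4g1, from 12.4% to 19.6% in unstimulated control to 29.1% and 36.2%, and from 17.7% to 24.7% to 42.1% and 45.1% in CtslΔTEC mice. For Eif3f the mean of this share went from 8.79% to 17.3% and from 12.1% to 28.0%, and for Eef2 from 3.25% to 9.31% and from 4.04% to 11.4%.

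Single coding transcripts shifted as well. Of the 61 members 6 (9.84%) had one whose share of the gene moved by over 10 points in both genotypes without overlap, beside 14.4% of 9060 protein-coding genes, and of the 42 members with 2 or more coding transcripts 5 (11.9%) did, beside 16.8% of 6772 genes, so such shifts are not particular to the members. Eif4h, a cofactor of eIF4A, shifted from one coding form towards another. Eif4h-201 took 60.5% to 65.5% in unstimulated control and 36.3% and 36.9% in stimulated control mice, and Eif4h-205 took 12.7% to 19.1% and then 38.1% and 41.9%. In CtslΔTEC mice Eif4h-201 went from 51.1% to 56.9% to 34.0% and 35.2%, so at rest it was lower than in every control mouse, and Eif4h-205 went from 17.9% to 25.1% to 35.15% and 36.4%. After stimulation Eif4h-205 led in both control mice, and the 2 forms were level in one of the 2 CtslΔTEC mice. For Eif4ebp2 the second coding transcript, Eif4ebp2-202, took 4.92% to 7.81% at rest and 20.6% and 30.1% after stimulation in control, and 2.32% to 11.03% and then 33.4% and 34.9% in CtslΔTEC mice. Eif5-212 went from a mean of 6.29% to 25.0% in control and from 9.01% to 26.4% in CtslΔTEC cells, and Eif3a-205 from 0.40% to 14.6% and from 0.84% to 12.04%. Eef1g-201, the one coding transcript of its gene, and Eif3d-201 lost 13.3 and 10.51 points in control and 14.4 and 19.7 points in CtslΔTEC cells, while the mean non-coding share went from 8.95% to 22.3% and from 12.1% to 26.5% for Eef1g, and stood at 14.2% and then 23.9% in control and 15.5% and then 34.6% in CtslΔTEC cells for Eif3d.

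**Figure D5:**
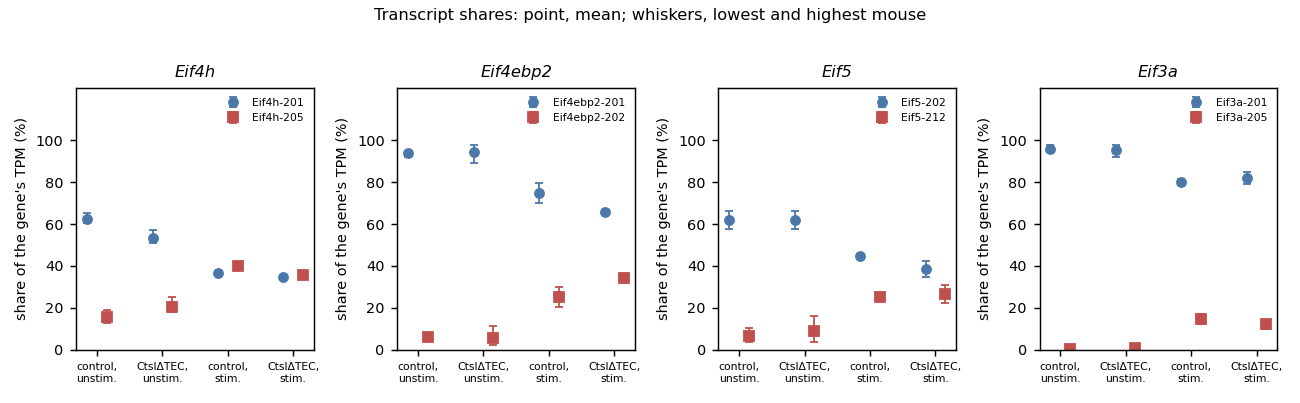
Share of the gene's TPM on 2 coding transcripts of Eif4h, Eif4ebp2, Eif5 and Eif3a in the 4 groups (points, mean; whiskers, lowest and highest mouse). In each gene the blue transcript loses and the red one gains share on stimulation in both genotypes, and after stimulation the 2 Eif4h forms have means between 34.6% and 39.97%.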

How the data were processed

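RNA from sorted thymocytes was sequenced in 13 libraries, described as polyadenylated RNA in the labels and as rRNA-depleted in the study's methods. The authors quantified transcripts with kallisto 0.48 (submitters' processing notes) against Ensembl release 106 and deposited estimated counts, not normalized, and TPM for 117497 transcripts. Of these 116397 were assigned to genes through GENCODE M21 (GRCm38), and the share of counts without a gene was 0.461% or less in each library. Counts were summed per gene and rounded. Genes kept by filterByExpr entered edgeR 4.0.16 in R 4.3.3 (TMM, quasi-likelihood test, Benjamini-Hochberg over all genes, threshold 0.1 as in the study): 9 unstimulated libraries for genotype at rest, a 4-group model of 13 for the rest. SE was derived from the log2 fold change and F. Intervals at a count of 0 cover counting error only. The fits were tested on simulated data. Groups came from the labels, and mouse numbers from the titles. The deposited names carry another number for 1 of 9 unstimulated and 4 of 4 stimulated libraries, so a number only names a library.

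Members, gene lists and tests were chosen with earlier results of these data known. Named with values were 8 members in any case (Eif2s3x, Eif2s3y, Eef2, Eef1a1, Eif5a, Eif4e, Eif4ebp1 and Eif4ebp2), the 5 called members per direction and comparison with the largest fold change and a mean of at least 1 log2 CPM, the member of smallest p per role in each response, and the called gene of smallest p per outside list. Transcripts, promoter sites and the values of Eif4g1, Eif2d, Eif5 and other members outside this rule were picked after seeing the data. Alternatives included DESeq2 1.42.0, limma 3.58.1 on log2(TPM + 1), other scalings and filters, date, sex, mouse number and leaving out each mouse.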

Additional observations from a re-analysis of the deposited data

Results flagged for a closer look

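The 26 named members and the members' summed TPM share were screened for a mouse far from the rest of its group at rest, which made 54 groups of values, and 3 were found, where chance gives about 1 in 20. Eif2s3y in unstimulated control mouse 3 (84.9 CPM) stood apart from the other control mice, which are the ones without Y-linked transcripts. Eif2s3x in unstimulated CtslΔTEC mouse 1 (159 CPM) was below the other 4 CtslΔTEC mice (187 to 198 CPM). Eef1akmt4 in unstimulated control mouse 1 (6.26 CPM) was below the other 3 controls (8.22 to 8.48 CPM), and without that mouse its genotype difference passed the test (log2 -0.32, adjusted p = 0.073).

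Eif4ebp1 and Eif4a1 had a response that differed between genotypes by the interaction test. Eif4ebp1 responded less in CtslΔTEC cells (log2 -1.59) and Eif4a1 more (log2 0.37). The Eif4ebp1 difference passed in 24 of 24 alternatives and that of Eif4a1 in 7 of 24.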

How the results depend on the processing

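Members called by genotype at rest numbered 10, and 6 at a threshold of 0.05, 5 with limma on log2(TPM + 1), 6 on the second date alone, 13 with DESeq2, 15 with date as a factor, 0 with the Y-linked covariate and 0 in the mice with Y-linked transcripts alone (added after seeing the data; 1 control mouse, assumed to vary like the others, so its lost calls show little; 3 members at an unadjusted p under 0.05). With the mouse number as a replicate block there were 4. Same-numbered mice of the genotypes are different animals, and the correlations of their deviations from the group means (-0.41, 0.55, -0.17 and -0.44) gave no sign of pairing. The stimulated groups share 1 number, so no paired analysis was possible there. Leaving out each mouse gave 5 to 12. These counts stand without the share of all genes called in the same fits, so their changes are not shown to be particular to the members. After stimulation 5 became 3 with limma and 2 in the 4 stimulated libraries alone, and 1 to 10 without each mouse. The 2 different responses became 1 with library totals alone, without the count filter, with the length offset, at 0.05, with limma, after thinning and with the Y-linked covariate, and 1 to 3 without each mouse, with Eif4ebp1 called throughout. The counts of responding members stayed within 1.5 times of 51 and 52 under all 17 and 18 alternatives (45 to 52 and 47 to 54). Signs turned for Eif2s3x at rest (0.0329 with the covariate, 0.0447 in the mice with Y-linked transcripts alone), for Eif2s3y in the CtslΔTEC response (1.39 with the covariate), for the members' median difference after stimulation (-0.199 to 0.000197 without each mouse, the latter without control mouse 5) and for the median of the response differences (-0.0190 with library totals, -0.0153 with limma, -0.0266 with the covariate, and -0.0675 to 0.101 without each mouse, negative without stimulated CtslΔTEC mouse 7 and without stimulated control mouse 6). The cause was not tested. The shallowest library was stimulated control mouse 5, where counting error is largest for members of low level.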
